A study of Mus musculus with 4 samples.

Results

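The IL-1 receptor family genes were followed in single αLPs, which are Lin-CD127+FLT3-LPAM-1+ lymphoid progenitors of mouse bone marrow, of WT and G3SEKO mice. The 7 members were Il1rl1, Il18r1, Il18rap, Il1r1, Il1r2, Il1rl2 and Il1rap, taken by name from the 23058 genes that both count tables list. G3SEKO mice carry a germline deletion, made with CRISPR-Cas9 in C57BL/6J zygotes (the labels give the strain as C57BL/6), of the tandem super-enhancers downstream of Gata3 (G3SE), so that every cell of these mice lacks them. Cells of several mice per genotype carried hashtags, through antibodies that bind MHC class I, and both genotypes went into 1 capture per experiment, which was sequenced by TAS-Seq, a full-depth single-cell method run here on the BD Rhapsody system. There were 2 experiments, each with both genotypes.

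In experiment 1 the labels give 3 hashtags to each genotype. For experiment 2 they place the 2 hashtags together under WT, and A0303 was taken here to mark G3SEKO cells. All G3SEKO values of experiment 2 depend on that choice, whereas experiment 1 does not. Cells whose Id2 level reached 1 on the scale ln(1 + reads per 10000) were kept: 681 WT and 43 G3SEKO cells in experiment 1, and 5130 WT and 1159 G3SEKO cells in experiment 2. The median depth of these groups was 396198 and 509911 reads per cell in experiment 1, against 29677 and 42814 in experiment 2. Reads, not molecules, were counted, so the intervals below cover counting error only. Levels are reads of a gene scaled to 1e+06 reads (CPM) summed over the cells of a gate, and levels of different genes are not compared because gene length was not corrected. The 2 captures shared 11 cell barcode numbers, and these were treated as different cells.

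Signalling receptors of this family carry immunoglobulin-like domains outside the cell and a TIR domain inside it. They signal through MyD88 once a ligand-binding chain has paired with an accessory chain. Il1rl1 encodes ST2, the IL-33 receptor that marks ILC2s. Il18r1 and Il18rap encode the binding and accessory chains of the IL-18 receptor, which is known from NK cells, ILC1s and ILC precursors. Il1r1 encodes the signalling IL-1 receptor, Il1r2 a decoy receptor for IL-1, Il1rl2 the IL-36 receptor, and Il1rap the accessory chain shared by the IL-1, IL-33 and IL-36 receptors. The deleted super-enhancers belong to the gene of GATA3, a zinc finger factor that ILC2s require.

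All but Il1rap stand in a row on mouse chromosome 1 (GRCm38, GENCODE annotation), all on the + strand and in the order Il1r2, Il1r1, Il1rl2, Il1rl1, Il18r1, Il18rap, over 477.627 kb. Il1rl1 covers chr1:40429570-40465415 and Il18r1 covers chr1:40465552-40500854, so that only 136 bases separate them. Il18rap follows at chr1:40515362-40551705. Upstream lie Il1r2 (chr1:40074079-40125231), Il1r1 (chr1:40225080-40317257) and Il1rl2 (chr1:40324610-40367562). Il1rap is apart, at chr16:26581704-26730117. Il1r2 and Il1rap are overlapped by antisense genes, and their reads and those of the antisense genes may not be told apart where strand was not used in counting. On the same strand Gm37347 overlaps Il1r2, Gm38070 overlaps Il1r1 and the pseudogene Gm17970 lies within Il1rl2, and strand cannot separate these.

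The sequences at the starts of Il1rl1, Il18r1 and Il18rap are shown because these neighbours differed in their behaviour between gates and genotypes. They come from RefSeq (GRCm38.p6), on the + strand and 5′ to 3′, and capitals mark GATA hexamers (the letters GATA with A or T before them and A or G after them, on either strand, overlapping matches included). Il1rl1 is transcribed from a distal and a proximal promoter, and the 250 bases before each start are given.
Il1rl1 distal start, chr1:40429320-40429569: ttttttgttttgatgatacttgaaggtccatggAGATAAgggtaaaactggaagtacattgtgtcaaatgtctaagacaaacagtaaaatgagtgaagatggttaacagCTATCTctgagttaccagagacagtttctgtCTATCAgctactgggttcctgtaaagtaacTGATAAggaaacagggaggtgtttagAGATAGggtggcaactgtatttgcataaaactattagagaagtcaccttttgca
Il1rl1 proximal start, chr1:40439379-40439628: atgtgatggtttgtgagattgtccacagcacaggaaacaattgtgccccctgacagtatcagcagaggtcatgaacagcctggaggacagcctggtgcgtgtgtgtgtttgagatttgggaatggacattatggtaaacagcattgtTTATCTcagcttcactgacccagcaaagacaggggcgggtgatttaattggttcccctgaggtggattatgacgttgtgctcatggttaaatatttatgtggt
Il1rl1 to Il18r1, chr1:40465416-40465551: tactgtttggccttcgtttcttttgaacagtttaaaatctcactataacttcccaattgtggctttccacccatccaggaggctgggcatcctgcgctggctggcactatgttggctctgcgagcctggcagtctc
Il18rap start, chr1:40515112-40515361: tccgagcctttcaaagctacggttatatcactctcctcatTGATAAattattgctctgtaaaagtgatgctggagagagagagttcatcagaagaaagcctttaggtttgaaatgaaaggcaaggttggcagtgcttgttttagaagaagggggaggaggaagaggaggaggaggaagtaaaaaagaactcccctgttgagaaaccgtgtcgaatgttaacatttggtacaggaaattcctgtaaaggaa
The distal Il1rl1 window held 5 GATA hexamers and the proximal one 1. The 136 intergenic bases between Il1rl1 and Il18r1 held 0, with 50.7% G and C. The window before Il18rap held 1, as did the one before Il1r2. All 3 annotated starts of Il18r1, both of Il1r1, and those of Il1rl2 and Il1rap had 0. Of 32851 windows of 250 bases before annotated starts of all genes, 26.5% held at least 1 such hexamer, 1.35% at least 3 and 0.0426% at least 5. Of windows of 136 bases, 14.5% held at least 1. A match describes letters and is not a site of binding.

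Cells were divided by their own reads at 100 CPM, first into Ccr6+ cells and then by Zbtb16, which encodes the ILC precursor factor PLZF, and by Icos, a costimulatory receptor of ILC2-committed cells. In experiments 1 and 2, WT Zbtb16- Icos+ cells had 434 and 500 CPM of the ILC2 marker Il2ra, 758 and 654 CPM of the ILC2 marker Rora, and 231 and 183 CPM of the ILCP list (Zbtb16, Pdcd1, Tox, Tox2 and Tcf7). Of the LTi and ILC3 markers, Cxcr5 was at 14.2 and 380 CPM and Il23r at 47.9 and 106 CPM in WT Ccr6+ cells (3 and 45 cells), and both were under 3 CPM in WT Zbtb16- Icos+ cells. The T, B and myeloid lists were at most 36.5, 72.9 and 12 CPM in the Zbtb16- Icos+ gate of either genotype. Differences in the 4 gating genes between gates follow from the gates themselves and are no result.

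Il1rl1 was highest in Zbtb16- Icos+ cells of WT mice and lowest in Ccr6+ cells. In experiment 1 it stood at 77.3 CPM in Zbtb16+ Icos-, 254 CPM in Zbtb16+ Icos+, 862 CPM in Zbtb16- Icos+, 611 CPM in Zbtb16- Icos- and 6.59 CPM in Ccr6+ cells. In experiment 2 the same gates had 401, 505, 1053, 1046 and 19.2 CPM. The order was the same in both experiments, but in experiment 2 the Zbtb16- Icos+ and Zbtb16- Icos- cells were nearly level. In cells thinned to the minimum depth of experiment 2, at least 1 Il1rl1 read was found in 80.1% of WT Zbtb16- Icos+ cells of experiment 1 (exact binomial 95% interval 75.6 to 84.0%) and in 78.5% of those of experiment 2 (76.8 to 80.2%). The shares in all Zbtb16+ cells were 26.5% and 45.6%, and 4 of 45 Ccr6+ cells of experiment 2 (8.89%, interval 2.48 to 21.2%) had a read.

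Il18r1, whose start lies just past the end of Il1rl1, had largely the opposite order. WT Zbtb16+ cells had 607 and 398 CPM, Zbtb16- Icos+ cells 214 and 116 CPM, and Ccr6+ cells 580 and 460 CPM in experiments 1 and 2. The lowest level of all was in the Zbtb16- Icos- cells of experiment 2, at 48.2 CPM. With thinned cells, 28.6% and 14.4% of WT Zbtb16- Icos+ cells had an Il18r1 read, against 66.9% and 42.1% of Zbtb16+ cells. Il18rap, the partner chain 14507 bases further on, did not follow Il18r1: its WT levels in the gates without Ccr6 were between 60.4 and 99.4 CPM, against 201 and 281 CPM in Ccr6+ cells.

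**Figure D1:**
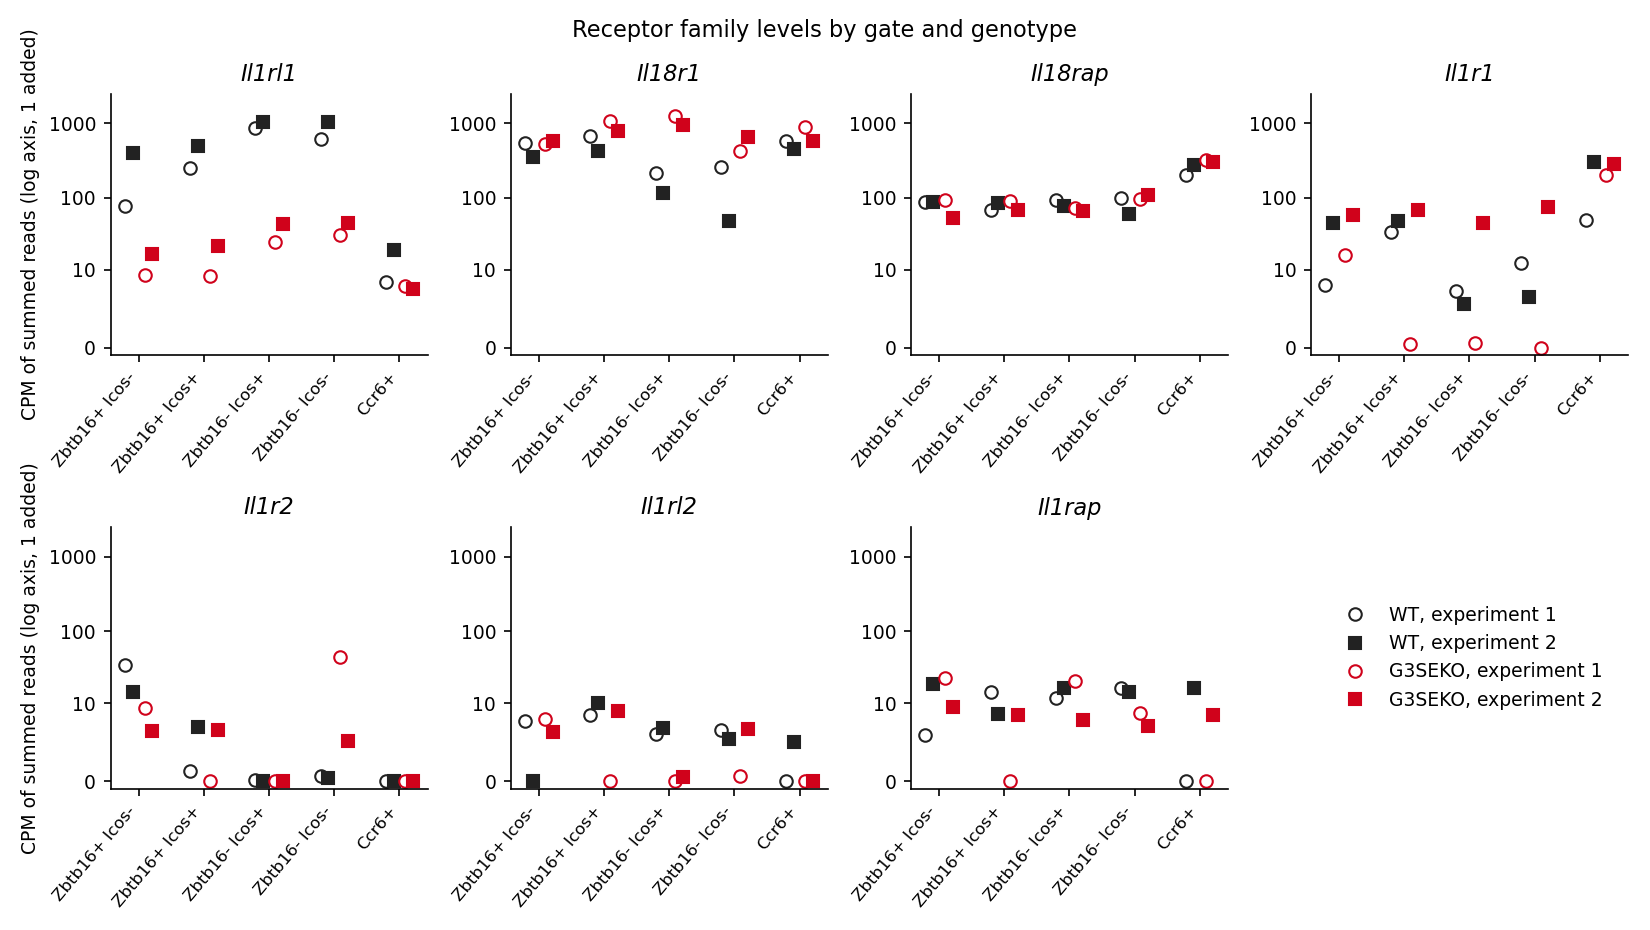
Levels of the 7 receptor genes (CPM of summed reads, log axis after adding 1) in 5 gates, WT in black and G3SEKO in red, with open circles for experiment 1 and filled squares for experiment 2; each point is 1 sum of cells. Il1rl1 was at 862 and 1053 CPM in WT Zbtb16- Icos+ cells and at 24.9 and 43.7 CPM in G3SEKO cells of that gate, whereas Il18r1 was at 214 and 116 CPM in WT and at 1260 and 940 CPM in G3SEKO.

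The step from Zbtb16+ to Zbtb16- Icos+ cells was tested in WT with edgeR on summed reads (2 sums per gate, experiment as a block). Zbtb16+ cells are not taken as ILC precursors alone, since 16.9% and 39.0% of thinned WT cells had Il1rl1 without Il18r1. The part of ILC2s in this gate was not tested. Il1rl1 was higher in Zbtb16- Icos+ cells in both experiments, 5.26-fold and 2.26-fold (log2 difference 1.81, SE 0.33, edgeR adjusted p = 0.195). Il18r1 was lower in both, 2.84-fold and 3.43-fold (-1.62, SE 0.11, adjusted p = 0.0867). Il18rap differed by 0.08 (SE 0.17, adjusted p = 0.906). Without the cells that had any LTi/ILC3 or NK/ILC1 marker at 100 CPM, a choice made after seeing the data, Il1rl1 was at 447 CPM in Zbtb16+ and 936 CPM in Zbtb16- Icos+ cells of experiment 1 and at 758 and 1096 CPM in experiment 2, so that both differences were smaller. Il18r1 was then at 338 and 122 CPM and at 213 and 83.8 CPM. None of the 7 receptor genes passed the adjusted threshold of 0.05, where 0.00484% of 20657 genes did (1 gene, the gating gene Zbtb16). At an unadjusted p under 0.05 there were 2789 genes, 4 of the receptors among them. DESeq2 called 1818 genes (10.3%), and in it Il1rl1, Il18r1, Il1r1 and Il1r2 passed. Over the 18 fits of this comparison Il1rl1 was called in 3, Il18r1 in 5, Il1r1 in 2 and Il1r2 in 6. Among these fits, those without the G3SEKO hashtags A0310, A0311 or A0312 repeat the main fit, since only WT cells enter.

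Between WT Ccr6+ cells, which include precursors of LTi cells, and all Ccr6- cells, Il1rl1 fell: it had 6.60 CPM against 613 CPM in experiment 1 and 19.2 against 981 CPM in experiment 2 (log2 difference -6.00, SE 0.69, edgeR adjusted p = 7.25e-15). It was the only one of 7 receptor genes called, where 0.478% of 20095 genes were called and 0.169% were called lower. Il18r1, Il18rap and Il1r1 had higher values in Ccr6+ cells in both experiments, but did not pass (log2 differences 1.42, SE 0.57, adjusted p = 0.913; 1.65, SE 0.82, adjusted p = 0.938; and 3.80, SE 1.31, adjusted p = 0.457). DESeq2 called 1.21% of genes and Il1rl1 with them (adjusted p = 0.00732). The Il1rl1 reads in Ccr6+ cells were 19 and 42, and Ccr6+ cells also differed in Gata3, at 199 and 160 CPM against 1196 and 1009 CPM. Experiment 1 had only 3 WT Ccr6+ cells, so the minimum of 5 cells per sum was lowered to 3 for this test after the data were seen. The median of all genes was -1.18 in this comparison, and without the experiment block no gene was called.

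Il1rl1 was nearly level across the Gata3 levels of WT Zbtb16- Icos+ cells. Zbtb16- Icos+ cells with under 300, 300 to 1000 and at least 1000 CPM of Gata3 had 786, 826 and 893 CPM of Il1rl1 in experiment 1 and 1016, 1010 and 1101 CPM in experiment 2. Between the outer tiers the log2 difference of Il1rl1 was 0.10 (SE 0.10, edgeR adjusted p = 1.0). Il18r1 went opposite ways in the 2 experiments, from 277 to 185 CPM and from 85.1 to 135 CPM (-0.00, SE 0.38). Il18rap was lower at high Gata3 in both, 84.1 against 173 CPM and 67.7 against 101.1 CPM, without passing (-0.86, SE 0.26, adjusted p = 1.0). No gene of 18018 was called by edgeR (0% background), 298 had an unadjusted p under 0.05, and DESeq2 called 50. Gata3 itself, which set the tiers, did not pass either (4.10, SE 0.13, edgeR adjusted p = 0.0681). The low tier held 47 of 371 WT cells in experiment 1 and 704 of 2399 in experiment 2. Its median depth was 305761 and 28248.5 reads per cell, against 413394 and 38267.5 in the high tier. Cells with few Gata3 reads through sampling were not told apart from cells low in Gata3.

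**Figure D2:**
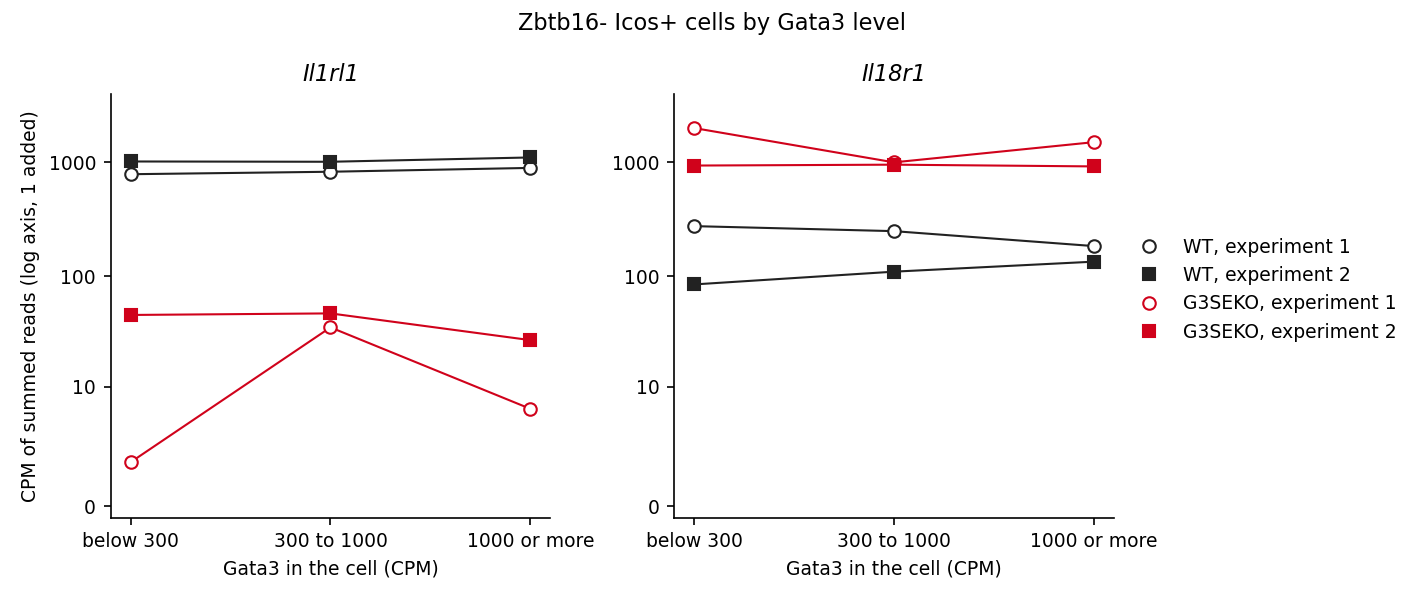
Il1rl1 (left) and Il18r1 (right) in Zbtb16- Icos+ cells divided by the Gata3 level of the cell (x axis, CPM), as CPM of summed reads on a log axis after adding 1, in WT (black) and G3SEKO (red), experiment 1 as circles and experiment 2 as squares. WT Il1rl1 was between 786 and 1101 CPM in all tiers, and the G3SEKO points of experiment 1 are sums of 2, 4 and 3 cells.

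Loss of G3SE went with a near loss of Il1rl1 reads. In Zbtb16- Icos+ cells it was at 24.9 CPM in G3SEKO against 862 CPM in WT in experiment 1 (34.5-fold lower) and at 43.7 against 1053 CPM in experiment 2 (24.1-fold lower). The 3 WT hashtags of experiment 1 had 891, 789 and 918 CPM in this gate. The 3 G3SEKO hashtags, with 3 cells each, had 78.1, 6.26 and 4.64 CPM. Of the 171 G3SEKO reads of experiment 1, 82.5% came from 1 cell. Il1rl1 fell by 4.84 on the log2 scale (SE 0.33, edgeR adjusted p = 0.00094) and ranked first by p among 19405 genes.

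Il18r1 moved the other way in the same cells. It was at 1260 CPM in G3SEKO against 214 CPM in WT in experiment 1 (5.89-fold higher) and at 940 against 116 CPM in experiment 2 (8.12-fold higher). The G3SEKO hashtags of experiment 1 had 1957, 801 and 1280 CPM and the WT hashtags 206, 274 and 152 CPM. The log2 difference was 2.80 (SE 0.28, edgeR adjusted p = 0.00563), the sixth lowest p of all genes. Il18rap had close values in both genotypes, at 72.6 against 93.4 CPM and 67.0 against 77.8 CPM (-0.28, SE 0.51, adjusted p = 1.0). Of 6 receptor genes tested here 1 was called higher and 1 lower, where 0.0876% of 19405 genes were called (0.0618% higher and 0.0258% lower); Il1r2 was filtered out for low reads. DESeq2 called 0.707% of genes, Il1rl1 among them but not Il18r1 (adjusted p = 0.245). Over all fits of this comparison each of the 2 genes was called in 15 of 18, and without the experiment as a block neither was (edgeR adjusted p = 0.69 and 0.987).

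The G3SEKO cells of this gate also differed in their markers. The ILCP list was at 2391 and 1201 CPM in G3SEKO against 231 and 183 CPM in WT, the LTi and ILC3 marker Cxcr5 at 67.9 and 40.4 against 1.42 and 2.42 CPM, and the NK/ILC1 list (Tbx21, Eomes, Klrb1c, Il2rb and Ncr1) at 961 and 229 against 83.1 and 21 CPM. Il23r, also a marker of LTi cells and ILC3s, was at 0 and 2.56 against 1.23 and 0.150 CPM. The NK cell receptor gene Klrd1 was among the 17 genes called. Il17rb, a mark of ILC2 commitment, stood at 879 and 912 CPM in G3SEKO and 405 and 622 CPM in WT. Bcl11b, another, stood at 449 and 666 CPM against 352 and 326 CPM. When cells with any LTi/ILC3 or NK/ILC1 marker at 100 CPM were left out, the 138 remaining G3SEKO cells of experiment 2 had 75.1 CPM of Il1rl1 and 887 CPM of Il18r1, and the 2163 WT cells 1096 and 83.8 CPM. In experiment 1 this left 2 G3SEKO cells, with 4.06 CPM of Il1rl1 and 1329 CPM of Il18r1. The 2 genes thus differed between genotypes in the same directions without these cells, and the part of such cells in the full sums was not tested further. The proliferation genes Mki67 and Top2a were at 48.0 and 202 CPM in WT and at 1.17 and 649 CPM in G3SEKO. Summed reads alone do not tell fewer cells with a transcript from less of it per cell, but the share of cells differed. In experiment 2, 6.31% of G3SEKO and 78.5% of WT cells of this gate had at least 100 CPM of Il1rl1, not thinned. For Il18r1 these shares were 87.7% and 13.3%.

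In experiment 2, 29 of 333 thinned G3SEKO Zbtb16- Icos+ cells had an Il1rl1 read (8.71%, interval 5.91 to 12.3%), against 1884 of 2399 in WT. The share in Ccr6+ cells was 2.65% in G3SEKO (interval 0.551 to 7.56%) and 8.89% in WT. The share of G3SEKO Zbtb16- Icos+ cells lay above that of G3SEKO Ccr6+ cells, with overlapping intervals, and beside that of WT Ccr6+ cells. Before thinning, 17 of the 333 cells had 100 to 1000 CPM of Il1rl1 and 4 had at least 1000 CPM. The part of free RNA of the shared capture in these reads was not tested. Ccr6+ cells had a median of 42297 reads in G3SEKO and 31527 in WT. Il18r1 reads were found in 87.1% of thinned G3SEKO cells (83 to 90.5%) against 14.4% in WT (13.0 to 15.8%), and in 9 of 9 G3SEKO cells of experiment 1. The median depth of these cells was 45483 reads in G3SEKO and 34676 in WT in experiment 2.

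In Zbtb16+ cells Il1rl1 was also lower in G3SEKO, at 8.13 against 164 CPM (20.1-fold) and 19.6 against 465 CPM (23.6-fold). This gate is not taken as precursors alone, and the part of ILC2s in the WT values was not tested. The log2 difference of Il1rl1 was -4.43 (SE 0.26) but did not pass across all genes (edgeR unadjusted p = 3.65e-05, adjusted p = 0.375). No gene of 17293 was called by edgeR in this comparison (0% background), 473 had an unadjusted p under 0.05, and DESeq2 called 161 genes (1.14%), Il1rl1 among them. With thinned cells edgeR called 0.785% of genes, again with Il1rl1. Il18r1 had higher values in G3SEKO in both experiments, 810 against 607 CPM and 695 against 398 CPM (0.64, SE 0.16, adjusted p = 0.998). Without the cells carrying LTi/ILC3 or NK/ILC1 markers it was at 938 CPM in 5 G3SEKO cells against 338 CPM in WT in experiment 1 and at 682 against 213 CPM in experiment 2 (1.63, SE 0.25, edgeR adjusted p = 1.0).

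The genotype effect on Il18r1 was therefore compared between the gates directly. The interaction was 2.19 on the log2 scale (SE 0.24, edgeR adjusted p = 0.813), and that of Il1rl1 was -0.39 (SE 0.45, adjusted p = 0.978). Neither passed. No gene of 18702 was called (0% background), 486 had an unadjusted p under 0.05, and DESeq2 called 58 (0.285%), among them Il18r1 (adjusted p = 0.00113) and Il1rl2 (adjusted p = 0.0339), the latter with 3 reads or fewer in the G3SEKO sums of Zbtb16- Icos+ cells. With thinned cells edgeR called 0.0794% of genes and Il18r1 with them (adjusted p = 0.000248). Across G3SEKO gates Il18r1 did not show the WT drop between Zbtb16+ and Zbtb16- Icos+ cells: the Zbtb16+ cells had 810 and 695 CPM and the Zbtb16- Icos+ cells 1260 and 940 CPM. In WT the first gate had 607 and 398 CPM and the second 214 and 116 CPM.

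**Figure D3:**
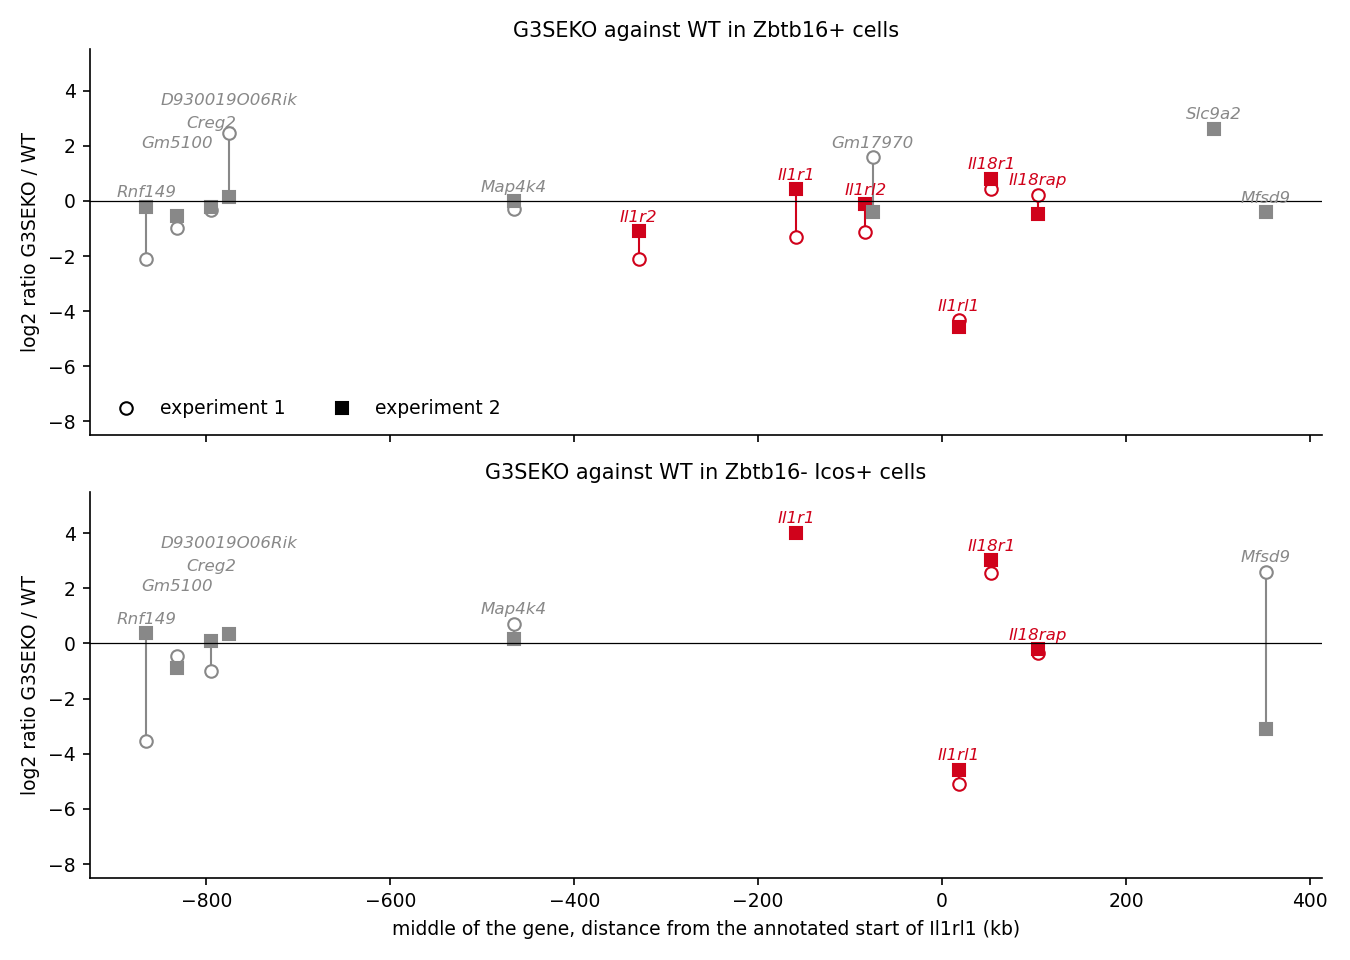
Log2 ratio of G3SEKO to WT (y axis) for genes along the receptor cluster and within 500 kb of it (x axis, distance of the middle of the gene from the annotated start of Il1rl1, kb), in Zbtb16+ cells (top) and Zbtb16- Icos+ cells (bottom), receptors in red and other genes in grey, circles for experiment 1 and squares for experiment 2; points with 3 or fewer reads in either sum are not drawn. Il1rl1 lay at -4.33 and -4.56 in Zbtb16+ and at -5.11 and -4.59 in Zbtb16- Icos+ cells, while Il18r1 lay above 0 in all 4.

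Of 22 other genes annotated within 500 kb, 8 were in both tables (Rnf149, Gm5100, Creg2, D930019O06Rik, Map4k4, Gm17970, Slc9a2 and Mfsd9), and edgeR called none of them in any of the 6 comparisons. Of all genes tested edgeR called between 0% and 0.478% in these comparisons, so nothing is read from this count. Between genotypes in Zbtb16- Icos+ cells 7 of the 8 had negative values, with a median of -0.83 where that of all genes was -0.35. Slc9a2 had 0 and 1 reads in the G3SEKO sums against 167 and 151 in WT, and Gm17970, which lies within Il1rl2 and may share its reads, had 0 and 1 against 98 and 41, too few for a fold. Map4k4, a kinase gene, differed between genotypes by 0.45 in Zbtb16- Icos+ cells (SE 0.35) and by -0.13 in Zbtb16+ cells (SE 0.19).

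Il1rl1 and Il18r1 were next read in the same cells, since their genes adjoin. In thinned WT cells both were found together less often than the product of their shares: 91 cells against 160 in experiment 1 (observed over expected 0.57) and 335 against 520 in experiment 2 (0.64). Of WT cells with an Il1rl1 read 20.4% had an Il18r1 read in experiment 1 (16.8 to 24.5%), against 65.3% of those without (58.8 to 71.3%). In experiment 2 these were 8.99% (8.09 to 9.96%) and 27.1% (24.8 to 29.5%). Within gates the ratio was 0.54 and 0.34 in Zbtb16+ cells and 0.72 and 0.79 in Zbtb16- Icos+ cells. With all reads of each cell, not thinned, the ratio in WT Zbtb16- Icos+ cells was 1.003 and 0.945. In experiment 1, 97.8% of these cells then had an Il1rl1 read and 87.6% an Il18r1 read. With a limit of 100 CPM in the cell, also not thinned, it was 0.69 and 0.74. In G3SEKO cells of experiment 2 the ratio was 1.02 in all cells, 1.12 in Zbtb16+ and 0.95 in Zbtb16- Icos+ cells, with few Il1rl1 reads. Cells are not replicates, and these ratios carry no test.

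The makeup of the Zbtb16- Icos+ gate shows this as shares of cells. In WT, 63.6% had Il1rl1 only, 12.1% Il18r1 only, 16.4% both and 7.82% neither in experiment 1, and in experiment 2 the shares were 69.7%, 5.5%, 8.88% and 16.0%. In G3SEKO cells of experiment 2, 79.9% had Il18r1 only, 1.5% Il1rl1 only, 7.21% both and 11.4% neither. Most WT cells of the gate thus had Il1rl1 alone and most G3SEKO cells Il18r1 alone. Without thinning, both were detected in 86.0% of the deep WT cells of experiment 1 and in 22.5% of those of experiment 2. With a limit of 100 CPM for each gene, not thinned, both were detected in 13.7% and 7.79%.

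**Figure D4:**
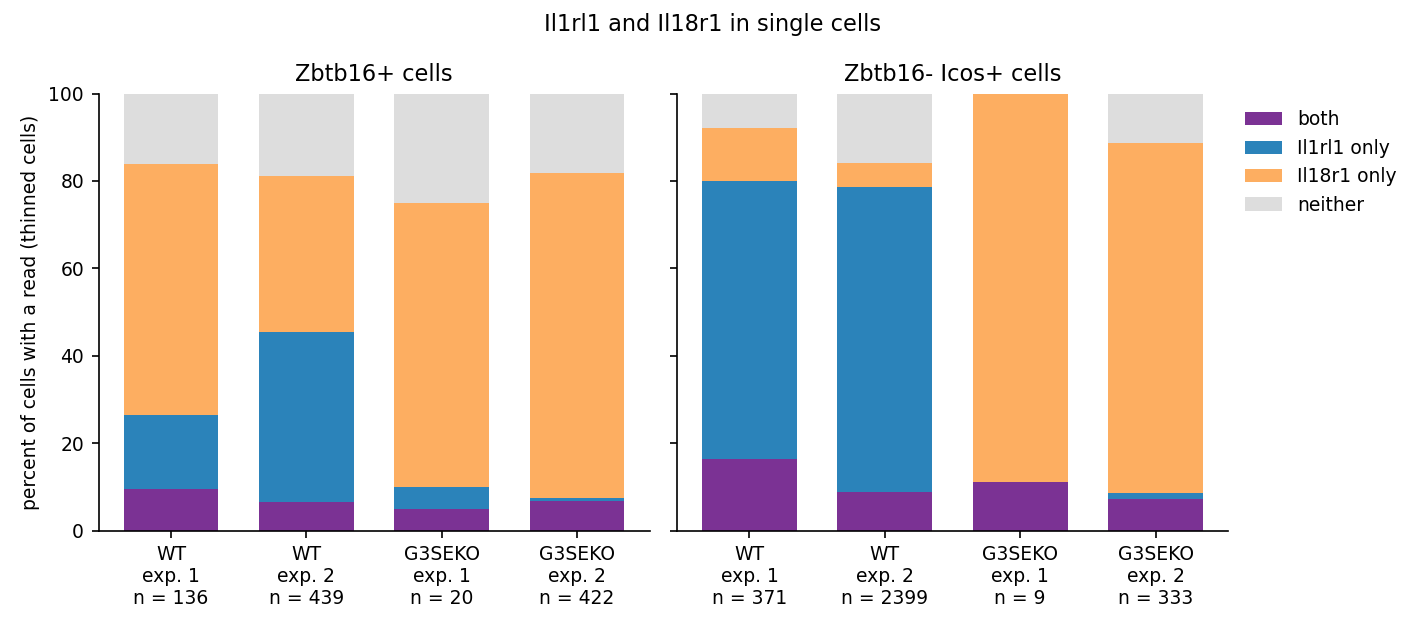
Shares of thinned cells (all at the same number of reads) with a read of both Il1rl1 and Il18r1 (purple), Il1rl1 only (blue), Il18r1 only (orange) or neither (grey) in Zbtb16+ (left) and Zbtb16- Icos+ cells (right), with the number of cells under each bar. In Zbtb16- Icos+ cells Il1rl1 alone took 63.6% and 69.7% in WT, and Il18r1 alone took 79.9% in G3SEKO cells of experiment 2.

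The amount of Il18r1 also went down with the amount of Il1rl1 in the WT cell. In Zbtb16- Icos+ cells with 0, above 0 to 100, 100 to 1000 and at least 1000 CPM of Il1rl1, Il18r1 was at 809, 553, 127 and 111 CPM in experiment 1 (8, 63, 153 and 147 cells). In experiment 2 it was at 292, 276, 95.2 and 60.2 CPM, in classes of 203 to 1032 cells. The break lay at 100 CPM of Il1rl1 in both. Gata3 differed less over these classes, with 997 to 1445 CPM in experiment 1 and 993 to 1084 CPM in experiment 2. In G3SEKO cells of experiment 2 Il18r1 was at 1011, 857, 752 and 1090 CPM (221, 91, 17 and 4 cells), with no such break.

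**Figure D5:**
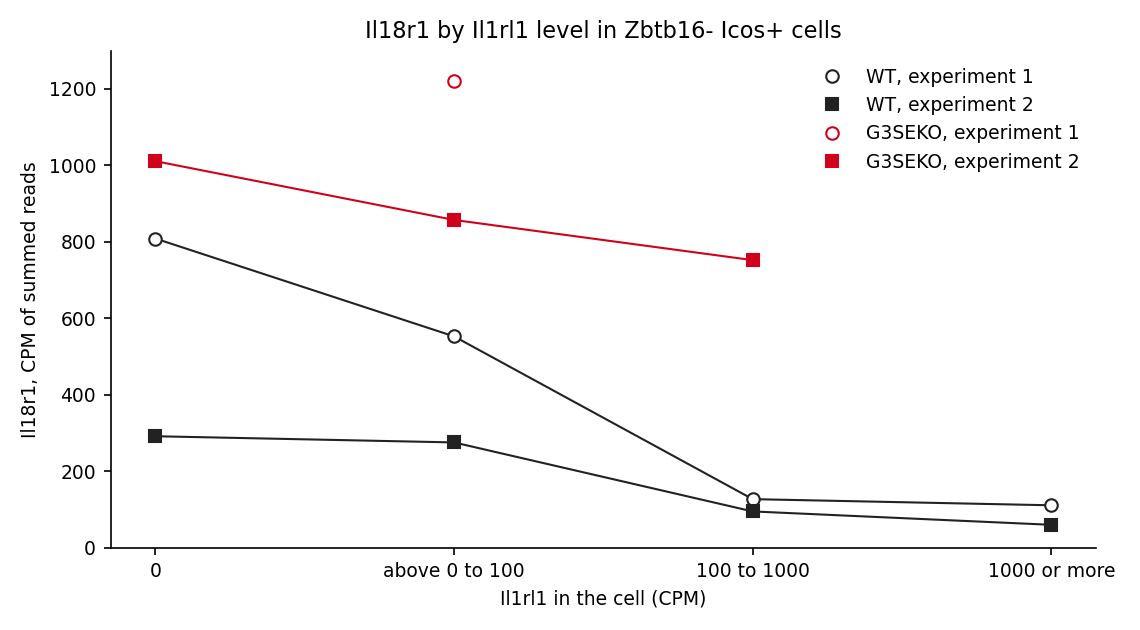
Il18r1 (y axis, CPM of summed reads) in Zbtb16- Icos+ cells grouped by the Il1rl1 level of the cell (x axis, CPM), WT in black and G3SEKO in red, circles for experiment 1 and squares for experiment 2; classes with under 5 cells are not drawn. WT values dropped from 809 to 111 CPM and from 292 to 60.2 CPM, and G3SEKO values of experiment 2 stayed between 752 and 1011 CPM.

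Cells with each receptor differed in other markers. WT cells with Il18r1 had 1954 and 1540 CPM of the ILCP list, against 516 and 227 CPM in those without. WT cells with Il1rl1 had 282 and 175 CPM of the ILCP list against 2326 and 1344 CPM without, and 1378 and 1042 CPM of Gata3 against 939 and 880 CPM. Some lists of other cell types moved with these splits. The NK/ILC1 list was at 25.7 and 19.3 CPM in WT cells with Il1rl1 and at 429 and 87.3 CPM in those without. The T list (Cd3e, Cd3d, Cd3g, Cd8a and Cd4) was at 9.44 and 5.54 CPM with Il1rl1 and at 81.8 and 25.0 CPM without. With Il18r1 the NK/ILC1 list was at 307.5 and 85.2 CPM, and without it at 112 and 25.6 CPM. The T list was nearly level in that split, at 39.6 and 10.1 CPM with Il18r1 and at 42.0 and 10.8 CPM without. The part of such cells in the split between Il1rl1 and Il18r1 was not tested.

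Il1r1, the signalling IL-1 receptor, stood in WT at 49.6 and 307.2 CPM in Ccr6+, 20 and 47.9 CPM in Zbtb16+, 4.72 and 2.79 CPM in Zbtb16- Icos+ and 12.6 and 3.83 CPM in Zbtb16- Icos- cells. Between Zbtb16- Icos+ and Zbtb16+ cells the log2 difference was -3.06 (SE 0.63, edgeR adjusted p = 0.223). In experiment 1 this direction rested on cells with LTi/ILC3 or NK/ILC1 markers: without them 18 of the 2010 reads in Zbtb16+ cells remained, and the level was 0.571 CPM against 1.92 CPM in Zbtb16- Icos+ cells. In experiment 2 it was then 20.6 against 2.22 CPM. In G3SEKO the experiments disagreed for Zbtb16- Icos+ cells, with 1 read in all 9 cells of experiment 1 and 45.4 CPM in experiment 2. The G3SEKO Zbtb16+ cells had 8.0 and 63.8 CPM, and the Zbtb16- Icos- cells 0 and 75.5 CPM. Il1r1 was found with Il18r1 more often than the product of shares in WT (18 cells against 7.20 and 61 against 12.3, ratios 2.50 and 4.97) and with Il1rl1 less often (0.23 and 0.36). WT cells with Il1r1 had 2045 and 2837 CPM of the ILCP list against 1144 and 416 CPM without, and 642 and 156 CPM of the NK/ILC1 list against 188 and 33.8 CPM.

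The Il18r1 and Il18rap chains of 1 receptor were found together in 49 WT cells against 47.1 expected in experiment 1 and in 122 against 77.9 in experiment 2 (ratios 1.04 and 1.57). Il1rl1 and its accessory chain Il1rap were found together in 18 against 17.0 and in 107 against 93.7 (1.06 and 1.14).

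Il1rap itself had 12.1 and 16.4 CPM in WT Zbtb16- Icos+ cells and 8.73 and 11.5 CPM in Zbtb16+ cells (log2 difference 0.52, SE 0.31, edgeR adjusted p = 0.578). In G3SEKO Zbtb16- Icos+ cells it had 20.8 CPM, all from 1 cell, and 5.67 CPM. Il1rl2, the IL-36 receptor, was at most 10.1 CPM in any gate, with 3.24 and 4.15 CPM in WT Zbtb16- Icos+ cells (589 and 470 reads) and 0 and 3 reads in G3SEKO cells of the gate. Its WT step from Zbtb16+ cells was -0.73 (SE 0.43, adjusted p = 0.573).

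Il1r2, the decoy, was read almost only in Zbtb16+ cells: 1795 and 202 reads in WT, against 7 and 1 reads in Zbtb16- Icos+ cells (edgeR adjusted p = 0.0867). In experiment 1, 50.9% of its reads in Zbtb16+ cells came from 1 cell. The highest level, 45.1 CPM in Zbtb16- Icos- cells of G3SEKO mice in experiment 1, came to 89.8% from 1 cell that had 137327 CPM of the myeloid list (Lyz2, Csf1r, Mpo, Elane and S100a8). Il1r2 is also a gene of neutrophils. The WT cell with most Il1r2 reads in experiment 1 had 11.1 CPM of the myeloid list, and that of experiment 2 had 0. The mast cell and basophil list (Mcpt8, Cpa3, Fcer1a, Ms4a2 and Gata2) was at 788 and 517 CPM in the 4 and 7 thinned WT cells with an Il1r2 read, against 114 and 58.5 CPM in those without. In G3SEKO it was at 1374 CPM in the 1 such cell of experiment 1 and at 92.9 CPM in the 4 of experiment 2, against 63.7 and 98.8 CPM without. The part of such cells in the Il1r2 reads was not tested.

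Ligands, adaptors and targets of the pathway were taken from a list of 50 genes, 42 of which were in both tables. Between 37 and 40 were tested in each comparison and edgeR called none, where 0% to 0.478% of all genes were called, so nothing is read from this count. The median log2 difference of the list was -0.39 between genotypes in Zbtb16- Icos+ cells, where that of all genes was -0.35, and 0.08 between the WT gates, where that of all genes was 0.05. At an unadjusted p under 0.05 there were 9 of 38 and 9 of 40, and of all genes 801 of 19405 and 2789 of 20657. The lowest p between genotypes was that of Nfkbiz, an inhibitor-like cofactor of NF-κB induced by these receptors (-3.22, SE 0.54, adjusted p = 0.118), followed by Peli1, a ubiquitin ligase of the pathway (-2.66, SE 0.68, adjusted p = 0.546). Fos and Jun, which encode AP-1 subunits, had positive values (1.61, SE 0.49, adjusted p = 0.922, and 1.10, SE 0.34, adjusted p = 0.98). Nfkbiz and Peli1 had positive values in the WT step to Zbtb16- Icos+ cells (0.99, SE 0.14, adjusted p = 0.162, and 0.75, SE 0.11, adjusted p = 0.166). Il18, the ligand of the IL-18 receptor, had -5.59 there (SE 0.86, adjusted p = 0.173).

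Over the 18 sums with at least 5 cells, which share libraries and are not independent, the genes most like Il1rl1 by Pearson correlation of centred log2 CPM were Slc7a8 (0.968), an amino acid transporter, Pparg (0.967), a nuclear receptor, Denn2b (0.950), Rnf128 (0.946), a ubiquitin ligase, and Pcsk1 (0.943), a prohormone convertase. Those most like Il18r1 were Ipcef1 (0.918), Myl12a (0.906), a myosin light chain, Tpm4 (0.899), a tropomyosin, Acpp (0.881) and Grcc10 (0.869). The correlation of Il1rl1 with Il18r1 was -0.741, ranking 9712 among 9750 genes, and with Gata3 it was 0.684. Il18r1 had -0.461 with Gata3. The genotype contributes to these correlations, which are a description with no test.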

How the data were processed

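TAS-Seq libraries of messenger RNA and of hashtags from αLPs were deposited for 2 experiments. Per the labels and the study's methods, the authors aligned reads with Bowtie2 to GRCm38 (mm10) and counted reads per gene in each cell, and the tables deposited hold these counts as they are, neither normalized nor collapsed by molecule; Seurat 4 was also named. Strand use in counting was not given in the sources used here. The study's depth limits (83012 reads in experiment 1, 6733 in experiment 2) were applied, mitochondrial reads could reach 10%, a single hashtag had to be named, and Id2 had to reach 1 on ln(1 + reads per 10000). Doublets were treated through the authors' hashtag calls alone (1 and 100 cells called), with no doublet caller, and 724 of 1033 and 6289 of 7630 cells remained. The deposited hashtag counts served for 1 alternative. The genotype of experiment 2 is discussed with the results. By the study's methods each genotype had more mice than hashtags in both experiments, so that mice were pooled under hashtags, and p-values measure only the spread between sums of pooled mice.

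Cells were gated at 100 CPM, with Gata3 tiers at 300 and 1000 CPM. Shares came from cells thinned to 6733 reads with exact Clopper-Pearson intervals (95%). Reads summed per gate, genotype and experiment (at least 5 cells, 3 for Ccr6+) were tested with edgeR 4.0.16 (R 4.3.3; quasi-likelihood, TMM, filterByExpr, Benjamini-Hochberg at 0.05, experiment as a block, since both genotypes shared each capture); per-experiment ratios had 2 reads added. On simulated counts with 200 genes changed 4-fold, 75% of the changes were recovered between the WT gates and 73.5% between Gata3 tiers. Between genotypes it was 64.5% in Zbtb16+ and 72.5% in Zbtb16- Icos+ cells, and for the interaction 8.5%. The Ccr6+ test was not simulated. Simulated counts had the same dispersion for every gene and the same means in both experiments, and only genes above a read limit were changed. These shares therefore do not measure the power of the real tests. Alternatives were DESeq2 1.42.0, no filter, no block, thinning, gates at 50 and 200 CPM, other cell filters and hashtag sums. Named genes were the 7 members, the gating genes, up to 5 called genes of the signalling list, neighbours within 500 kb and the 5 genes most like Il1rl1 and Il18r1; the signalling genes with the lowest p, Klrd1 and single cell type markers were chosen after their values were seen. Some markers of the ILC2 and LTi/ILC3 lists, and the sums of those lists, are not reported here. The members and lists were chosen with earlier results of these data known.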

Additional observations from a re-analysis of the deposited data

How the results depend on the processing

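Between the WT gates the count of called genes was 1 with edgeR, 52 without the filter on low counts, 1818 with DESeq2, 559 with thinned cells, 2 and 68 with gates at 50 and 200 CPM, 83 and 21 without cycling or T lineage-like cells, 371 with sums per hashtag, and 0 to 10 when 1 hashtag was left out. For Ccr6+ cells it was 96, with 155 for DESeq2, 41 thinned, 602 with hashtag sums and 92 without WT hashtag A0307. Leaving out a G3SEKO hashtag does not change this WT comparison. The 200 CPM gate and the omission of cycling cells or of WT hashtags A0308 or A0309 left under 3 cells and were not run. For the Gata3 tiers it was 0, with 1 without the filter, 50 for DESeq2, 1 thinned and 1 with hashtag sums. Between genotypes in Zbtb16+ cells it was 0, with 161 for DESeq2, 89 thinned and 1 with hashtag sums. In Zbtb16- Icos+ cells it was 17, with 139 without the filter, 125 for DESeq2, 157 thinned, 0 at 200 CPM, 11 by the hashtag fold rule, 3 with hashtag sums, and 7 to 56 leaving out a hashtag (7 without WT A0307 or A0308, 28 without G3SEKO A0310, 56 without G3SEKO A0311). The interaction had 0, with 58 for DESeq2 and 10 thinned.

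Without the replicate block on experiment, 10 genes were called between the WT gates, 0 for Ccr6+ cells and 0 between genotypes in Zbtb16- Icos+ cells, where Il1rl1 and Il18r1 then had adjusted p = 0.69 and 0.987; Il1rl1 in Ccr6+ cells had 0.417. The block rests on the shared capture.

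In Zbtb16- Icos+ cells Il1rl1 lost its call also at 200 CPM (edgeR adjusted p = 0.0507) and with hashtag sums (0.317), and Il18r1 at 200 CPM (0.131) and with DESeq2 (0.245); leaving out any 1 of the 6 hashtags of experiment 1 (those of experiment 2, with 1 per genotype, were not left out) kept both, at -5.85 to -4.56 and 2.66 to 2.94. The omission of LTi/ILC3- and NK/ILC1-marked cells, added after seeing the data, left 2 G3SEKO cells there and was not run as a test; in Zbtb16+ cells Il1rl1 then had -5.31 (adjusted p = 0.50) and Il18r1 1.63 (adjusted p = 1.0), and the interaction of Il1rl1, then without a G3SEKO sum of Zbtb16- Icos+ cells in experiment 1, turned to 1.05. Il1rl1 passed in Zbtb16+ cells with DESeq2, with thinned cells and with hashtag sums (adjusted p = 0.0273), and Il18r1 in the interaction with DESeq2 and with thinned cells (0.000248). Other signs turned for Il18rap between WT gates (-0.010 at 50 CPM, -0.13 to 0.31 leaving out a hashtag, -0.14 in experiment 2 alone), and between Gata3 tiers Il1rl1 (-0.045 with hashtag sums, -0.12 to 0.28) and Il18r1 (0.022 without the filter, 0.17 without cycling cells, -0.19 to 0.37, and -0.58 and 0.67 in experiments 1 and 2 alone). Il1r1, Il1rap and Il1rl2 also differed in sign between the experiments in some comparisons, Il1r1 between genotypes in Zbtb16- Icos+ cells with -4.83 and 4.01.

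The shares differed with the reads used. With all reads, the shares of Zbtb16- Icos+ cells with Il1rl1, Il18r1 and both were 97.8%, 87.6% and 86.0% in WT and 100%, 100% and 100% in G3SEKO cells of experiment 1, and 87.0%, 27.4% and 22.5% in WT and 33.6%, 94.3% and 33.0% in G3SEKO cells of experiment 2. At 100 CPM in the cell, not thinned, both were found in 13.7% and 7.79% of the WT cells. The cause of these differences between settings was not tested.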
